A study of Homo sapiens with 9 samples.

Results

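The immediate-early genes of the EGR, FOS and JUN families were followed in HT1080 cells, an established human fibrosarcoma line, growing on top of a thick gel of bovine collagen. The members were fixed by name as EGR1, EGR2, EGR3, FOS, FOSB, FOSL1, FOSL2, JUN, JUNB and IER3, and were found as every probe set that the array's annotation gives to 1 of these genes alone. This gave 18 of 54613 probe sets, which cover 9 of the 10 genes. EGR2 had no such probe set and has no value here. A probe set is a group of short probes that together measure 1 stretch of messenger RNA.

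The study compared untreated cells, called vehicle in the sample titles, with cells given a mix of protease inhibitors, for 4 h in one group and for 24 h in another, on 3 Affymetrix arrays per group. All cells had been seeded on collagen at 1.7 mg/ml in medium with 10% serum and had adhered for 24 h before treatment. The mix held 100 µM GM6001, which inhibits metalloproteinases, 50 µM pepstatin A, which inhibits aspartic proteases, and 250 µM E64, which inhibits cysteine proteases. It also held 2 µM leupeptin, which inhibits cysteine and serine proteases, and 2 µM aprotinin, which inhibits serine proteases. The labels leave the harvest time of the untreated cells unstated. Every group is the same single cell line, kept in serum.

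Immediate-early genes are transcribed within minutes of a growth factor, stress or mechanical signal, without new protein synthesis, and their messages are usually short-lived. Growth factor signals reach them through the ERK kinases, which activate ternary complex factors bound beside serum response factor, and most of their products are transcription factors. FOS proteins pair with JUN proteins to form AP-1, which binds DNA and controls genes of invasion, inflammation and matrix breakdown, while EGR proteins bind GC-rich sites through zinc fingers. FOSL1 and FOSL2 are slower and longer-lasting members of the FOS family, and IER3 is an immediate-early gene that limits cell death.

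Promoter sequences of 7 of the 10 genes were taken from RefSeq (GRCh38.p14), and the 250 bases before each of their 9 starts of transcription, which lie just upstream of the first exon, were searched on both strands. No promoter of EGR3, FOSL1 or IER3 was searched, so the survey of the members is not complete. The promoters of EGR1 and JUN are shown because these genes have different time courses below, and that of FOS because it is the best known member and was dim on these arrays. Capitals mark matches. The window of EGR1 is chr5:138465229-138465478 on the plus strand, that of JUN chr1:58784048-58784297 on the minus strand and that of FOS chr14:75278578-75278827 on the plus strand.
EGR1: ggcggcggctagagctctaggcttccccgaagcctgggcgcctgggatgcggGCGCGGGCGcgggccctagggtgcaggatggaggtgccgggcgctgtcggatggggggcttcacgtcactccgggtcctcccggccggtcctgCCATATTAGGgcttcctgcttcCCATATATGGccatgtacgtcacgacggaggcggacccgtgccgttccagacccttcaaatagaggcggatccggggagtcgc
JUN: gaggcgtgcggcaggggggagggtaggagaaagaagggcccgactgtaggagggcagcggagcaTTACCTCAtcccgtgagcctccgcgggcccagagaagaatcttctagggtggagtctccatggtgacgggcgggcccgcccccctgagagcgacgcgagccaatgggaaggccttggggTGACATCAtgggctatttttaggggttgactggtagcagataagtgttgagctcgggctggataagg
FOS: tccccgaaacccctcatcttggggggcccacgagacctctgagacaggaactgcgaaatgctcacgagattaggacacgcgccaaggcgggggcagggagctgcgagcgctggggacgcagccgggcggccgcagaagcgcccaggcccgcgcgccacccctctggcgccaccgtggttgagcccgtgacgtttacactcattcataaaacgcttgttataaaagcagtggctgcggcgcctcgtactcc

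The EGR1 window held 2 matches to the CArG box, the site of serum response factor, beginning at -105 and -83 from the start of transcription. A CArG box was found in 1.16% of 35116 promoters of this length. The same window held an EGR site (GCGNGGGCG) beginning at -198, a motif present in 8.41% of promoters. The JUN window held both AP-1 variants described for the JUN promoter, TTACCTCA at -186 (0.644% of promoters) and TGACATCA at -67 (2.37%). Neither the general AP-1 site TGANTCA (6.57% of promoters) nor the cAMP response element TGACGTCA (1.65%) was found in the 3 windows, and none of the 6 motifs was found in the windows of FOS, FOSB, FOSL2 and JUNB. Of the 3 EGR2 starts, 1 had a CArG box. These are matches of letters within 250 bases and say nothing of binding. Sequence further upstream was not searched, so a window without a match does not mean that the gene lacks the site.

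Intensities are the deposited linear values, which had been scaled to a common trimmed mean, and were tested as log2(intensity + 16) with limma. A gene is represented by its brightest probe set in the fit over 19775 genes, and every probe set was also tested in a second fit over all 54613. Adjusted p-values are Benjamini-Hochberg values over the whole fit, and a call means an adjusted p below 0.05. Fold changes are on the log2(intensity + 16) scale, which understates changes of dim genes.

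Arrays differed in ways that moved with treatment. The 5′ probe set of ACTB relative to its 3′ probe set, a measure of RNA integrity, lay between 0.855 and 0.922 on untreated arrays and between 0.654 and 0.727 at 24 h. At 4 h it was 0.682 and 0.615 in replicates 1 and 3 but 0.871 in replicate 2, which also lay nearest to the untreated arrays on the first principal component (-17.6, against 15.3 and 29.9 for the other 4 h arrays and -42.8 to -28.7 for untreated arrays). Control probe sets for polyadenylated bacterial transcripts averaged 8.75 untreated, 9.55 at 4 h and 9.94 at 24 h as log2(intensity + 16). The part of these measures in the results was not tested, and for the brightest probe set of each member that is not dim the 4 h change is also given without replicate 2. The mesenchymal markers fixed for the line were bright for 6 of 8 genes, led by VIM, whereas COL1A2 and THY1 were dim. Of 7 epithelial markers only KRT8 and KRT18 reached a mean intensity of 32, with EPCAM and CDH1 near 0. Of 5 endothelial markers 1 reached 32 (PECAM1), and of 4 measured leukocyte markers none did. Summed endothelial markers lay between 32.2 and 47.8 untreated, 55.2 and 88.4 at 4 h and 70.1 and 117 at 24 h, and their part in the results was not tested.

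EGR1 had the clearest change of the family. Its message was higher after 4 h of inhibition and lower at 24 h than at 4 h, although the second of these calls was lost in 8 of 9 runs with 1 array left out. At 24 h its mean lay above the untreated mean without passing (adjusted p = 0.0715). No other measured member passed the threshold in any of the 3 comparisons. JUNB and IER3 had their highest group mean at 4 h without passing, the main JUN probe set was lowest at 24 h, and FOSL1 and FOSL2 had lower means in both treated groups. FOS, FOSB and EGR3 were dim in every group, with mean intensities under 16. No treated array was earlier than 4 h, so a shorter response of any member before then was not measured.

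**Figure D1:**
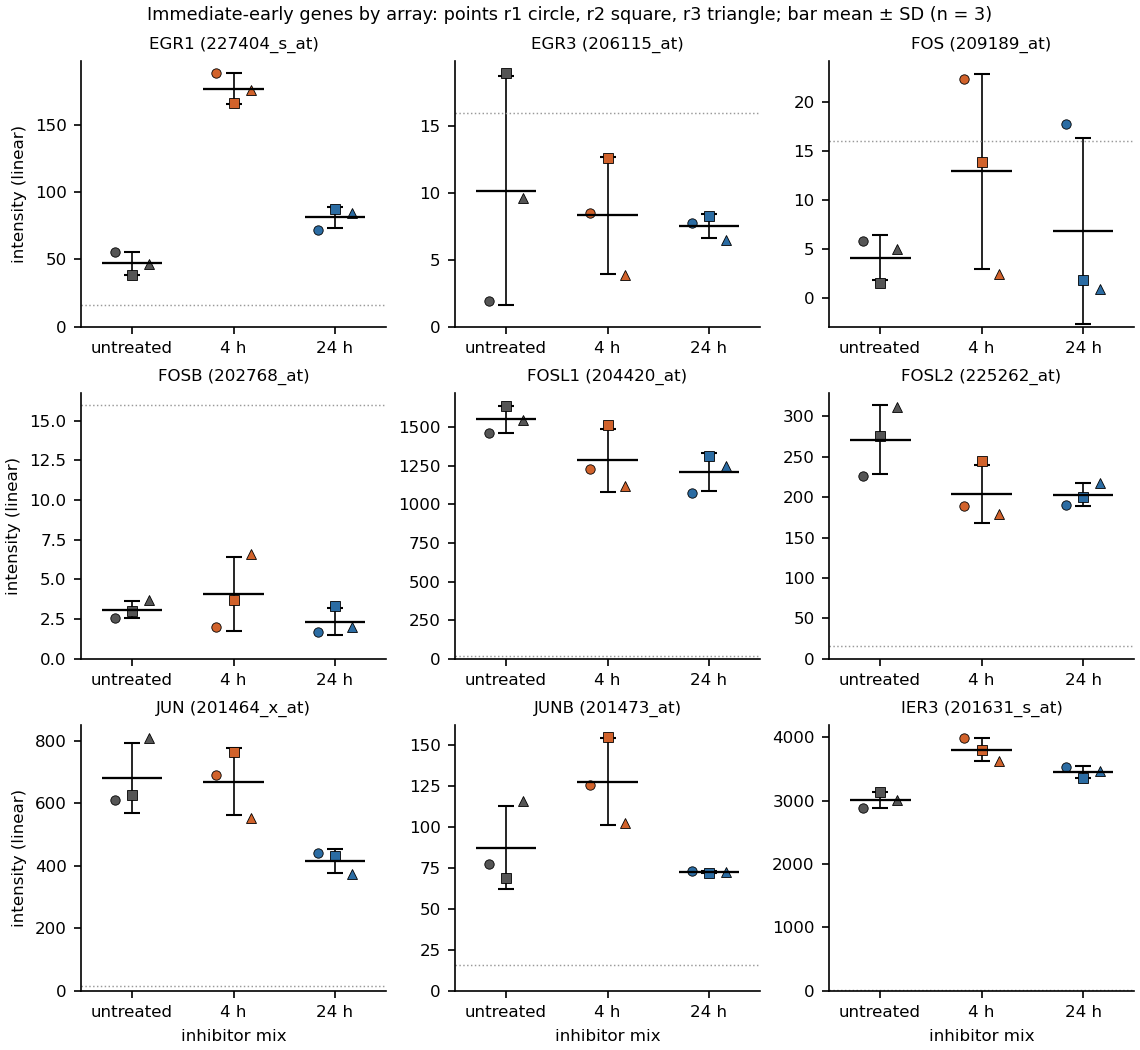
Linear intensity (vertical axis, starting at 0 unless an SD bar reaches below it) of the 9 measured genes on the 9 arrays, with the group on the horizontal axis, circles, squares and triangles for replicates 1, 2 and 3, and bars for mean ± SD (n = 3). The dotted line is the pseudocount of 16. EGR1 lies between 166 and 189 at 4 h, above all untreated arrays (38.8 to 55.5), while EGR3, FOS and FOSB lie around or below the dotted line.

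EGR1 is a zinc finger transcription factor that serum, stress and mechanical signals induce. Its brightest probe set, 227404_s_at, read 55.5, 38.8 and 46.8 on the untreated arrays, 188.8, 166.2 and 176.3 at 4 h, and 72.2, 87.3 and 84.4 at 24 h. The 3 groups did not overlap, with the 4 h arrays highest, the 24 h arrays between and the untreated arrays lowest. The change at 4 h was 1.62 ± 0.13 (SE) on the log2 scale, with a 95% interval of 1.32 to 1.92, a 3.08-fold rise (adjusted p = 0.00407), and EGR1 ranked number 2 of all genes by p. It was called with any single array left out as well (adjusted p up to 0.0465), and without replicate 2 of the 4 h group the change was 1.66. Leaving out the 24 h arrays gave an adjusted p of 0.0476. Message from a culture cannot show whether more cells, or each cell, carried more EGR1 RNA.

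At 24 h the same EGR1 probe set was 0.63 ± 0.13 (SE) above untreated, or 1.55-fold, with an adjusted p of 0.0715. This missed the threshold, but passed it with a pseudocount of 64 (adjusted p = 0.0248) and with dim genes filtered out (adjusted p = 0.0277). From 4 h to 24 h EGR1 fell by 0.99 ± 0.13 (SE) on the log2 scale (adjusted p = 0.0301). That call held without untreated replicate 1 (adjusted p = 0.0450) and was lost without any of the other 8 arrays (adjusted p 0.0585 to 0.125). It was lost as well with a pseudocount of 1 (0.0965), median centring (0.0535), the compared groups alone (0.118) and the mean over probe sets (0.130).

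The other EGR1 probe sets were dimmer and gave smaller changes. Probe set 201694_s_at read 24.1, 17.4 and 12.3 untreated, 50.3, 61.3 and 47.8 at 4 h, and 33.1, 36.7 and 37.1 at 24 h, the same order of groups with no overlap. Its change at 4 h was 1.04 ± 0.15 (SE) and at 24 h 0.62 ± 0.15 (SE), with adjusted p-values of 0.0802 and 0.127 in the fit over all probe sets, where 227404_s_at had an adjusted p of 0.0136 at 4 h. That last call was lost without untreated replicates 2 or 3 or without 4 h replicates 1 or 3 (adjusted p 0.0757 to 0.122). Probe set 201693_s_at lay near the pseudocount, at 12.6 to 17.9 untreated, 16.6 to 27.2 at 4 h and 19.8 to 26.4 at 24 h, and its 4 h arrays overlapped the untreated ones. With the mean of the 3 probe sets in place of the brightest, the EGR1 change at 4 h was 0.97 (adjusted p = 0.0112).

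EGR3, a close relative that can follow EGR1 in growth factor responses, had 1 dim probe set. It read 1.9, 19 and 9.6 untreated, 8.5, 12.6 and 3.9 at 4 h, and 7.8, 8.3 and 6.5 at 24 h. The groups overlapped, and the arrays of the untreated group alone spanned the whole range. The log2 change was -0.07 at 4 h (-0.31 to 0.17 over runs with 1 array left out) and -0.10 at 24 h, with 95% intervals of -0.58 to 0.45 and -0.61 to 0.41, so moderate changes in either direction lie within them.

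**Figure D2:**
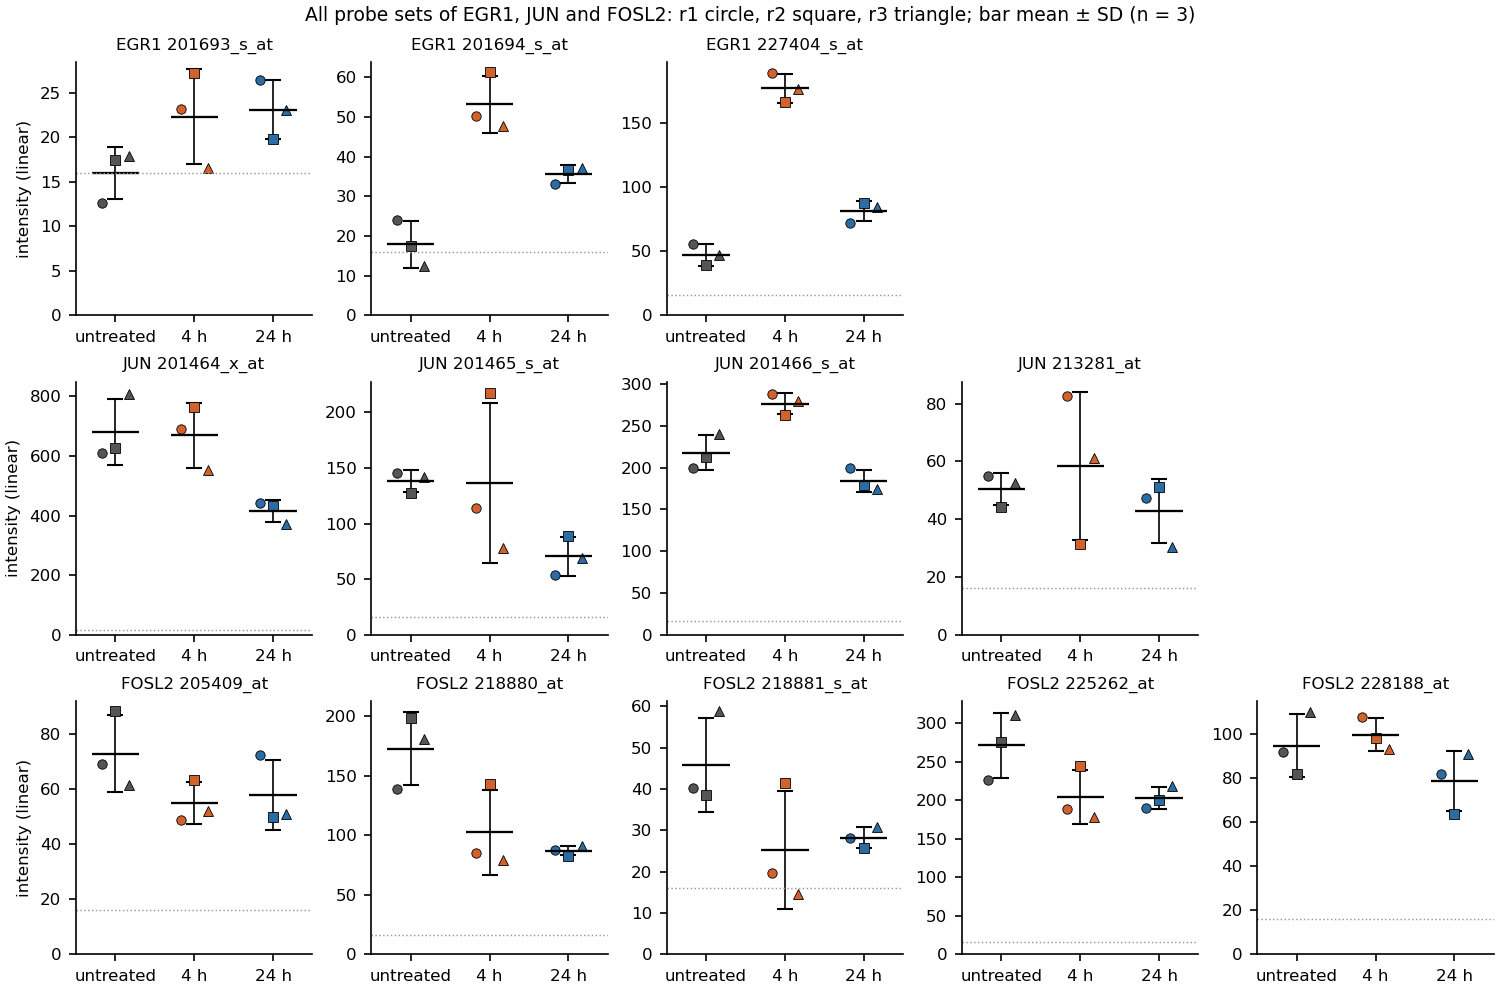
Linear intensity of all probe sets of EGR1 (top row), JUN (middle) and FOSL2 (bottom) by group, with circles, squares and triangles for replicates 1, 2 and 3, bars for mean ± SD (n = 3) and a dotted line at the pseudocount of 16. Across the rows, 201694_s_at and 227404_s_at of EGR1 share 1 order of groups, whereas JUN 201466_s_at is highest at 4 h and 201464_x_at is as high untreated as at 4 h.

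FOS, the founding AP-1 partner, was dim. Its probe set read 5.8, 1.5 and 5 untreated, 22.3, 13.9 and 2.5 at 4 h, and 17.7, 1.8 and 0.9 at 24 h. Replicates 1 and 2 at 4 h and replicate 1 at 24 h stood above the untreated arrays and the remaining treated arrays did not, so the groups overlapped. The log2 change at 4 h was 0.47 (95% interval -0.23 to 1.16, adjusted p = 0.602). It was 0.23 without 4 h replicate 1, 0.76 without 4 h replicate 3 and 1.19 with a pseudocount of 1. FOSB, another FOS family gene with a brief response, read 1.7 to 6.6 on all 9 arrays, below the pseudocount. No order of groups can be read from values this close to background.

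FOSL1 encodes FRA-1, an AP-1 subunit known for promoting invasion in mesenchymal tumour cells, and its probe set was bright. It read 1464, 1637 and 1546 on the untreated arrays, 1226, 1513 and 1116 at 4 h, and 1070, 1310 and 1247 at 24 h. All 24 h arrays lay below all untreated arrays, while at 4 h replicate 2 lay within the untreated range. The log2 change was -0.28 ± 0.14 (SE) at 4 h (adjusted p = 0.480) and -0.36 ± 0.14 (SE) at 24 h (limma adjusted p = 0.265). Neither passed, and the 95% interval at 24 h was -0.68 to -0.03. The 4 h change was -0.40 without 4 h replicate 2 and -0.18 without 4 h replicate 3, the extremes over runs with 1 array left out.

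FOSL2 encodes FRA-2, the closest relative of FRA-1, and was measured by 5 probe sets. The brightest, 225262_at, read 226.7, 275.9 and 311.1 untreated, 188.9, 244.3 and 178.6 at 4 h, and 190, 200.7 and 218.1 at 24 h. All 24 h arrays again lay below the untreated ones, and replicate 2 at 4 h again lay inside the untreated range. The change was -0.39 ± 0.16 (SE) at 4 h and -0.38 ± 0.16 (SE) at 24 h (limma adjusted p = 0.361 and 0.274), and the 4 h change was -0.51 without 4 h replicate 2 and -0.29 without untreated replicate 3.

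The probe sets of FOSL2 mostly had the same sign. Probe set 218880_at had the largest difference, reading 138.7, 198.3 and 180.8 untreated, 85.3, 143.3 and 78.8 at 4 h, and 87.3, 82.9 and 91.2 at 24 h. Its change was -0.70 ± 0.21 (SE) at 4 h (adjusted p = 0.250), or -0.93 without 4 h replicate 2, and -0.86 ± 0.21 (SE) at 24 h (adjusted p = 0.120). Probe sets 205409_at and 218881_s_at had lower means than untreated at both times, whereas 228188_at had a log2 change of 0.07 at 4 h and -0.23 at 24 h. In FOSL1 and in 4 of the 5 FOSL2 probe sets, replicate 2 was the highest of the 4 h arrays, and the same array had the ACTB ratio nearest to untreated. Whether RNA integrity had a part in these values was not tested.

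JUN encodes c-Jun, the main JUN partner in AP-1, and its 4 probe sets differed in shape. The brightest, 201464_x_at, carries a suffix that the array's maker gives to probe sets that may also bind other transcripts. It read 609.2, 625.1 and 809.4 untreated, 691, 763.6 and 551.4 at 4 h, and 441.4, 431.8 and 372.1 at 24 h. All 24 h arrays lay below all others, while untreated and 4 h arrays overlapped. The change was -0.03 ± 0.16 (SE) at 4 h, with a 95% interval of -0.39 to 0.34 (-0.13 without 4 h replicate 2 and 0.10 without 4 h replicate 3), and -0.69 ± 0.16 (SE) at 24 h, 0.622-fold of untreated (adjusted p = 0.0906). The 24 h difference passed the threshold with a pseudocount of 64 (adjusted p = 0.0290) and with dim genes filtered out (adjusted p = 0.0383), and not otherwise.

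A second JUN probe set, 201466_s_at, read 199.7, 212.4 and 240.6 untreated, 287.6, 262.7 and 279.2 at 4 h, and 199.3, 178.9 and 174.9 at 24 h. Here the 4 h arrays lay above all untreated arrays and the 24 h arrays just below them. Its change was 0.33 ± 0.12 (SE) at 4 h (0.36 without 4 h replicate 2) and -0.55 ± 0.12 (SE) from 4 h to 24 h (adjusted p = 0.367 and 0.206). Probe set 201465_s_at read 145.9, 127.5 and 141.6 untreated, 113.9, 217.6 and 78.1 at 4 h, and 54.1, 88.5 and 68.7 at 24 h. Its 4 h group had the widest spread, with replicate 2 far above the others. Its change at 4 h was -0.12 ± 0.29 (SE), and -0.48 without 4 h replicate 2. Probe set 213281_at overlapped between all groups, at 30.4 to 82.7, with a change at 4 h of 0.11, and 0.40 without 4 h replicate 2. All 4 probe sets had a lower mean at 24 h than in either other group, with log2 changes of -0.85 to -0.19 against untreated, none of them called.

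JUNB, a JUN family member that can restrain c-Jun, read 77.5, 68.7 and 116.2 untreated, 125.8, 155.2 and 102.3 at 4 h, and 73.3, 71.7 and 72.6 at 24 h. All 4 h arrays lay above all 24 h arrays, but 4 h replicate 3 lay below untreated replicate 3. The change was 0.49 ± 0.19 (SE) at 4 h (95% interval 0.06 to 0.91, adjusted p = 0.343) and -0.68 ± 0.19 (SE) from 4 h to 24 h (adjusted p = 0.214). The 4 h change was 0.35 without 4 h replicate 2 and 0.68 without untreated replicate 3.

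IER3 had the brightest probe set of the members. It read 2881, 3135 and 3015 untreated, 3991, 3802 and 3628 at 4 h, and 3535, 3356 and 3476 at 24 h. The groups did not overlap and had the order of EGR1, with 4 h highest and 24 h between, although the size was small. The change was 0.34 ± 0.11 (SE) at 4 h, a 1.26-fold difference that was also 0.34 without 4 h replicate 2 (95% fold interval 1.07 to 1.49, adjusted p = 0.239), and 0.20 ± 0.11 (SE) at 24 h (limma adjusted p = 0.403). With a pseudocount of 64 the 4 h difference passed the threshold (adjusted p = 0.0397).

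**Figure D3:**
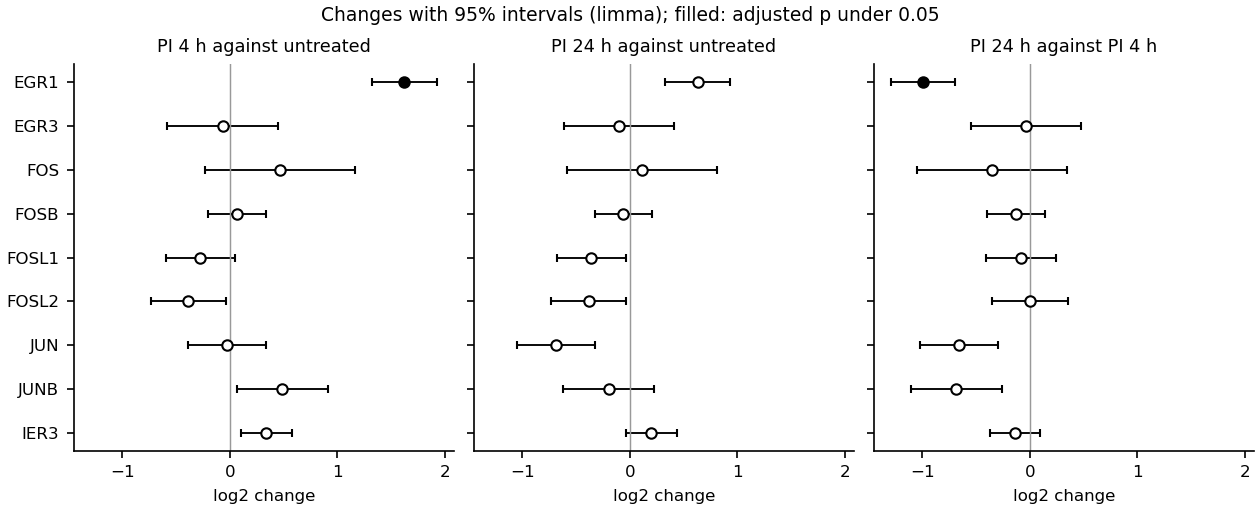
Log2 change of intensity + 16 (horizontal axis) for each gene in the 3 comparisons, with 95% intervals from limma and filled points where the adjusted p was below 0.05. Only EGR1 is filled, at 1.62 for 4 h against untreated and -0.99 for 24 h against 4 h.

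Counted over the 9 genes, 1 was called at 4 h (EGR1, higher), as were 0.253% of all 19775 genes. None was called at 24 h against untreated, where limma called 0.47% of all genes, and 4 of the 9 had an unadjusted p below 0.05 against 15.8% of all genes. At 4 h 4 of the 9 had one against 12.3% of all genes, and from 4 h to 24 h 3 of the 9 against 11.4%. From 4 h to 24 h 1 of 9 was called (EGR1, lower) beside 0.142% of all genes. The median log2 change of the 9 genes was 0.07, -0.10 and -0.14 in the 3 comparisons, beside 0.01, 0.01 and -0.00456 over all genes. The members were chosen with earlier results of these data known, so these counts are not independent evidence.

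Counted over the 18 probe sets, 1 was called at 4 h (227404_s_at of EGR1) beside 0.0128% of all probe sets. None was called by limma in the comparisons of 24 h with untreated (0.0531% of all) and of 24 h with 4 h (0.0256% of all), where 7 and 6 had an unadjusted p below 0.05 beside 13.4% and 9.5% of all. At 4 h 8 of 18 had one, beside 11% of all. At 4 h, 4 of 18 probe sets had no overlap between treated and untreated arrays, all higher, which held for 16.1% of all probe sets. At 24 h they did not overlap in 11 of 18, with 4 higher (the 3 of EGR1 and that of IER3) and 7 lower (3 of JUN, 3 of FOSL2 and that of FOSL1), beside 21% of all. Between 24 h and 4 h 7 of 18 did not overlap, all lower at 24 h, beside 13.4% of all. Probe sets of 1 gene share its message and are not independent, and exact permutation of 3 against 3 arrays cannot give a p under 0.1 for any single one. Both comparisons with untreated cells use the same 3 untreated arrays.

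Genes that work with these factors were taken from lists fixed by name, all drawn up with earlier results of these data known. The EGR co-repressors NAB1 and NAB2 and the relative EGR4 did not pass in any comparison (0 of 3 genes by limma, with 1 at an unadjusted p below 0.05 in each). NAB1, which binds EGR1 and limits its activity, read 51.9, 52.2 and 51 untreated, 74, 93.9 and 76.6 at 4 h, and 70.6, 69.1 and 78.4 at 24 h. Its treated arrays lay above the untreated ones at both times (log2 change 0.52 and 0.39, adjusted p = 0.124 and 0.151), although at 24 h the other 3 of its 4 probe sets went the other way. EGR4 was near background, at 23.6 ± 3.7 untreated, 14.5 ± 4.9 at 4 h and 32.5 ± 10.2 at 24 h.

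Of 8 further AP-1 partners (JUND, ATF2, ATF3, ATF7, BATF, BATF2, BATF3 and JDP2) none passed by limma, and 2 had an unadjusted p below 0.05 in each comparison. ATF3, a stress-induced partner of JUN proteins, read 50.1, 73.5 and 73.7 untreated, 101.9, 105.2 and 87.8 at 4 h, and 63.9, 65.4 and 51.5 at 24 h. Its 4 h arrays stood above all others (log2 change 0.49 against untreated, adjusted p = 0.239, and -0.59 from 4 h to 24 h, adjusted p = 0.189). BATF2 read 52.5 ± 12.3 untreated, 32.4 ± 8.1 at 4 h and 30.4 ± 8.8 at 24 h. ATF7, a partner that stress kinases phosphorylate, read 167 ± 5 untreated, 166 ± 19 at 4 h and 216 ± 20 at 24 h (limma adjusted p = 0.229 against untreated).

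Limma called 0.253% of all genes at 4 h and 0.47% at 24 h against untreated. Among 21 measured kinases and factors that act upstream, 1 rose at 4 h and at 24 h. This was RPS6KA5, which encodes MSK1, a kinase that ERK and p38 activate and that phosphorylates CREB and histone H3 at immediate-early genes. It read 38.3, 42.5 and 53.2 untreated, 101, 94.4 and 123.9 at 4 h, and 98.1, 93 and 96.6 at 24 h, with no overlap between treated and untreated arrays. The changes were 1.01 ± 0.14 and 0.89 ± 0.14 (SE), with adjusted p-values of 0.0352 and 0.0383. These are values of its brightest probe set. Its other probe sets overlapped with untreated at both times, with log2 changes of only 0.08 and 0.19 at 4 h. At 24 h 1 of its 3 probe sets went the other way. The call at 4 h was lost with any single array left out (adjusted p 0.0503 to 0.180), and at 24 h it held only without 4 h replicate 2 or 3 (adjusted p up to 0.182 in the other runs). SRF, the gene of serum response factor, read 99.5, 78.2 and 101.5 untreated, 185, 163.9 and 175.7 at 4 h, and 117, 121.5 and 98.7 at 24 h. Its 4 h arrays lay above all others, but the change of 0.81 ± 0.13 (SE) did not pass (adjusted p = 0.0518). Another, dimmer probe set of SRF had means of 23.7 untreated, 25.1 at 4 h and 18.7 at 24 h. There the groups overlapped, with a log2 change of 0.03 at 4 h. MRTFB, an SRF co-activator gene, read 87.7 ± 5.3 untreated, 85.4 ± 5.1 at 4 h and 124 ± 14 at 24 h (limma adjusted p = 0.123 at 24 h).

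Of 38 measured genes on a list of other immediate-early genes, 4 rose at 4 h, none fell and 34 did not pass. Over all genes 0.253% passed at 4 h. Like the other lists, this one had been drawn up with earlier results of these arrays known and is not independent evidence of a direction. The 4 were MAFF, a small MAF factor (414 ± 12 untreated and 1316 ± 252 at 4 h), NFKBIA, an inhibitor of NF-kB (571 ± 46 and 1375 ± 131), TNFAIP3, a negative regulator of the same pathway (93.2 ± 9.7 and 229 ± 7), and CCN2, a matrix-associated growth factor (383 ± 42 and 1140 ± 253). Their log2 changes were 1.61, 1.24, 1.17 and 1.51, with adjusted p-values of 0.00572, 0.00789, 0.00952 and 0.0215. Of 9 runs with 1 array left out, MAFF was called in 8 (lost without untreated replicate 3), NFKBIA in 6 (lost without untreated replicate 2 or 3 or 4 h replicate 1), TNFAIP3 in 6 (lost without untreated replicate 3 or 4 h replicate 1 or 3) and CCN2 in 3 (lost without any untreated array, 4 h replicate 1 or 2, or 24 h replicate 3), with adjusted p-values up to 0.0507, 0.0595, 0.0792 and 0.133. The median over the list was 0.18, beside 0.01 over all genes.

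At 24 h against untreated, 2 genes of that list were higher, 1 was lower and 35 did not pass, while 0.47% of all genes passed. MAFF and NFKBIA were still higher, at 793 ± 36 and 954 ± 22 (adjusted p = 0.0418 and 0.0448), and GADD45A, a stress and growth arrest gene, was lower, at 329 ± 3 against 608 ± 5 (adjusted p = 0.0332). The MAFF values are those of its brightest probe set. Its other probe set had a log2 change of 0.86 at 4 h but only 0.14 at 24 h, where it overlapped with untreated (means of 115 and 103). All 3 calls were lost without any single untreated or 24 h array (adjusted p up to 0.184), and that of NFKBIA also without 4 h replicate 1. From 4 h to 24 h 3 genes fell, none rose and 35 did not pass, while 0.142% of all genes passed. CCN2 fell to 256 ± 32 and TNFAIP3 to 88.0 ± 8.8 (adjusted p = 0.00662 for both), and MCL1, a survival gene, fell from 2937 ± 90 to 1689 ± 33 (adjusted p = 0.0356), although 3 of its 6 probe sets went the other way. The calls of CCN2 and TNFAIP3 held with any array left out (adjusted p up to 0.0422 and 0.0451), and that of MCL1 was lost with any left out (0.0584 to 0.160). In these genes, as in EGR1, the 24 h arrays lay below the 4 h arrays. The list's median change from 4 h to 24 h was -0.36, beside -0.00456 over all genes.

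**Figure D4:**
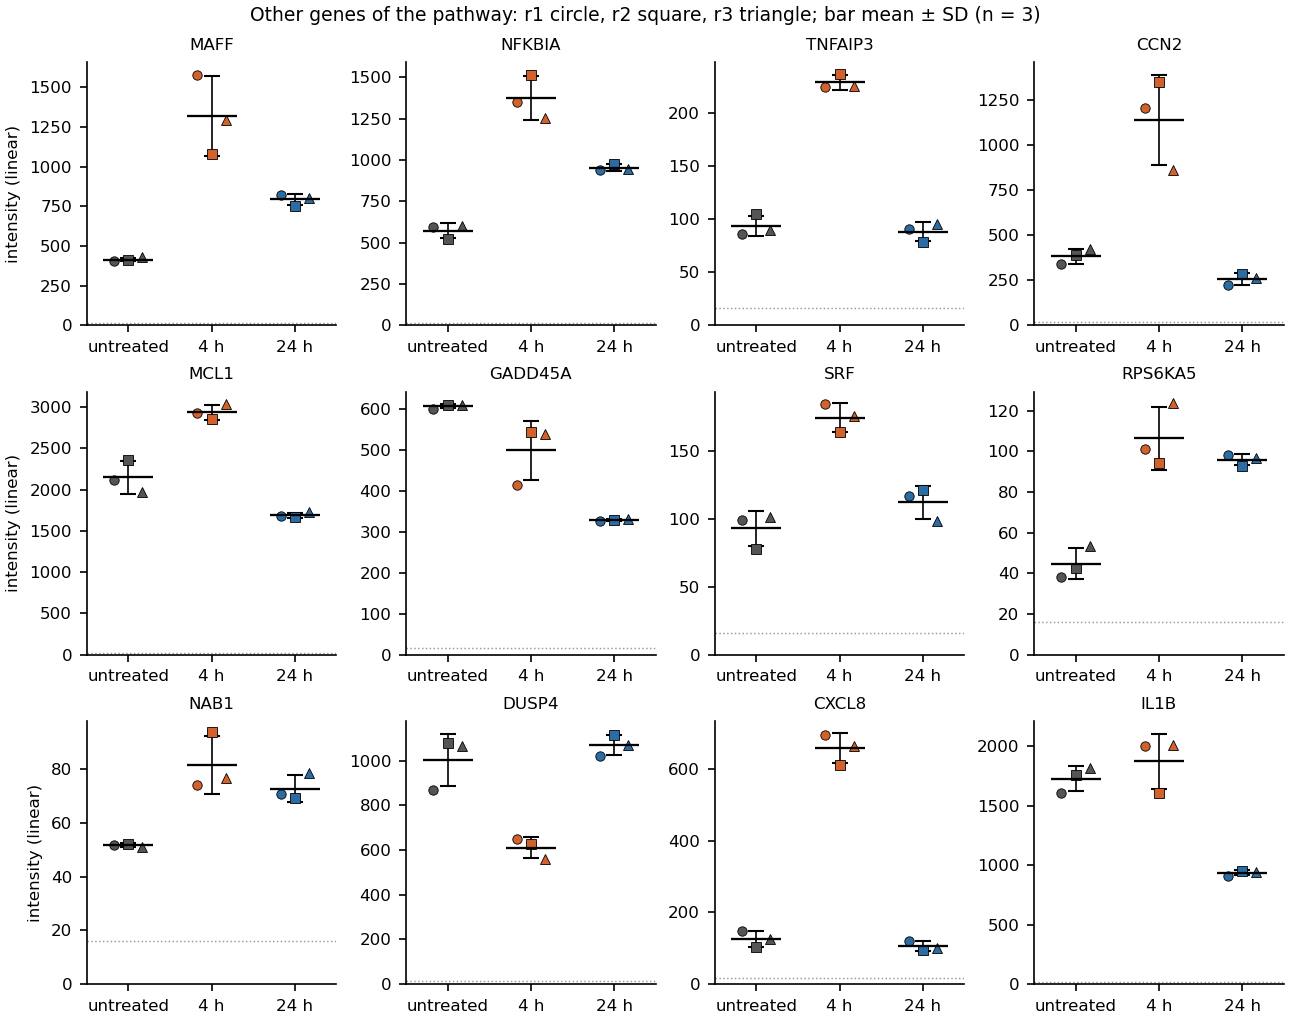
Linear intensity of the brightest probe set of 12 other genes of the pathway by group, each on its own axis from 0. Circles, squares and triangles mark replicates 1, 2 and 3, and bars show mean ± SD (n = 3). CXCL8, TNFAIP3 and CCN2 lie near or below the untreated level at 24 h, whereas MAFF, NFKBIA and RPS6KA5 stay above it and DUSP4 is lowest at 4 h.

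Of 16 ERK output and feedback genes none passed by limma in any comparison. An unadjusted p below 0.05 was found for 6 at 4 h, 5 at 24 h and 4 from 4 h to 24 h, beside 12.3%, 15.8% and 11.4% of all genes, and the list's median change at 4 h was 0.04. DUSP4, a nuclear phosphatase that ERK induces and that switches ERK off, read 870.3, 1079 and 1065 untreated, 648.2, 625.6 and 558.6 at 4 h, and 1023, 1115 and 1071 at 24 h. In this brightest probe set of DUSP4 the 4 h arrays lay below all others, the reverse of EGR1. There the log2 change was -0.70 at 4 h (limma adjusted p = 0.0667). From 4 h to 24 h it was 0.79 (limma adjusted p = 0.0551). None of the 3 DUSP4 probe sets went the other way at 4 h, but their shapes differed. A dimmer one had means of 530 untreated, 441 at 4 h and 545 at 24 h. Its 4 h arrays overlapped the untreated ones (log2 change -0.25). The dimmest had means of 259, 143 and 185, and its 24 h arrays still lay below the untreated ones (log2 change -0.44). DUSP5 read 714 ± 82 untreated, 890 ± 229 at 4 h and 524 ± 28 at 24 h (limma adjusted p = 0.172 from 4 h to 24 h). ETV5 read 490 ± 116 untreated, 712 ± 56 at 4 h and 696 ± 96 at 24 h. SPRED1, an inhibitor of RAS signalling, read 182 ± 16, 223 ± 38 and 245 ± 15. IER5L had a log2 change of -0.96 at 4 h (adjusted p = 0.188).

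Among 27 measured genes known from other systems as AP-1 or EGR1 targets, 1 rose at 4 h, none fell and 26 did not pass. Over all genes 0.253% passed at 4 h, 0.47% at 24 h against untreated and 0.142% from 4 h to 24 h. The rise was in CXCL8, a chemokine gene that AP-1 and NF-kB both control, which read 126 ± 23 untreated, 657 ± 42 at 4 h and 106 ± 14 at 24 h (limma adjusted p = 0.00107 at 4 h and 0.000456 from 4 h to 24 h). At 24 h IL1B, the gene of interleukin 1 beta, was the 1 of 27 that was lower, at 937 ± 21 against 1729 ± 108 untreated (adjusted p = 0.0332), and it was lower than at 4 h as well (1873 ± 233, adjusted p = 0.0266). The CXCL8 calls held with any array left out (adjusted p up to 0.0184 and 0.00775). The IL1B call against untreated was lost without any single untreated or 24 h array (up to 0.169), and that against 4 h held only without untreated replicate 1 or 4 h replicate 2 (up to 0.118 in the other runs). F3, tissue factor, read 149 ± 3 untreated, 177 ± 27 at 4 h and 85.4 ± 15.9 at 24 h (limma adjusted p = 0.0737 at 24 h). The list's median change was 0.09 at 4 h and -0.22 at 24 h, beside 0.01 over all genes in both.

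Genes with the most similar pattern over the 9 arrays were sought for each member with a mean intensity of at least 32, among 9895 other genes of at least that level. Pearson's r is given as a description only, since the groups and the arrays are shared. For EGR1 these were ABL2 (r = 0.98), ZNF275 (0.98) and WSB1 (0.97), all of which read highest at 4 h. ABL2, a cytoskeletal tyrosine kinase, measured 221 untreated, 369 at 4 h and 278 at 24 h as group means. For IER3 they were NFKBIE (0.98), MAFF (0.96) and MAP3K14 (0.96), of which NFKBIE and MAP3K14 encode an inhibitor and a kinase of NF-kB signalling. NFKBIE measured 109, 208 and 160, and MAP3K14 85.7, 204 and 142.

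For FOSL1 the most similar genes were SAC3D1, RNF126 and ASF1B (r = 0.98 each), in all of which replicate 2 was the highest 4 h array. For FOSL2 they were CCNY, RRAGA and PDIA4 (0.97, 0.97 and 0.97), again with replicate 2 highest at 4 h. For JUN they were ELL, SINHCAF and CIRBP (0.98, 0.97 and 0.96), which were lowest at 24 h. CIRBP, a cold-inducible RNA-binding protein gene, measured 754 untreated, 734 at 4 h and 549 at 24 h. For JUNB they were ANKRD46, DCAF12 and MYBL2 (0.93, 0.92 and 0.92), which had their highest group mean at 4 h. MYBL2, a cell cycle transcription factor gene, measured 141 untreated, 180 at 4 h and 119 at 24 h.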

How the data were processed

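The authors deposited 1 linear intensity per probe set and array. The submitters' processing notes name R 2.9.2 and RMA with no role, and the mean after trimming 2% at each end of the deposited intensities was 100.01 to 100.02 on every array. How probes were summarised is not stated in those notes. Replicates are called biological in the series' design text, which names kinase inhibitors where the treatment protocol lists protease inhibitors; the protocol was followed.

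Of 54675 probe sets, 62 controls were left out, 41091 named 1 gene in the platform annotation, 1801 several and 11721 were not listed. Symbols were updated through Entrez identifiers, of which 41037 matched RefSeq. Values were transformed as log2(intensity + 16). All 9 arrays entered a limma 3.58.1 model with a mean for each group (R 4.3.3, lmFit and eBayes, two-sided), once over genes (brightest probe set) and once over all probe sets. The scripts were first tested on simulated data. The number of arrays limits precision.

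The members and lists were chosen with earlier results of these data known. Named genes were the 10 members, each list gene past the threshold or, where fewer than 2 passed, the 2 of smallest p (marker lists are given by counts), and the 3 genes most like each member. Alternatives were pseudocounts of 1 and 64, quantile normalization, median centring, a filter at the 40th percentile, the compared groups alone, a replicate block, the mean over probe sets, and leaving out each array. Leaving out arrays was applied to the lists of other genes after seeing the data.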

Additional observations from a re-analysis of the deposited data

Results flagged for a closer look

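EGR1 differed between the time points: its effect at 24 h was smaller than at 4 h by a log2 change of -0.99 (limma, adjusted p = 0.0301), and all 3 arrays at 24 h lay below all 3 at 4 h. In the fit over probe sets the same difference had an adjusted p of 0.0830. Of 9 runs with 1 array left out, the call held only without untreated replicate 1 (adjusted p = 0.0450).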

How the results depend on the processing

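The call of EGR1 at 4 h held under all 17 alternatives of the gene fit, with log2 changes of 0.97 to 1.90. For 4 h against untreated, a pseudocount of 64 gave 2 called genes in place of 1, and the probe set count of 1 became 3 with a pseudocount of 64, 2 with the filter, and 0 with a pseudocount of 1, the compared groups alone or the replicate block; it was 0 to 1 without 1 array. For 24 h against untreated, 2 genes were called in place of 0 with a pseudocount of 64 or the filter, and 2 probe sets with a pseudocount of 64. For 24 h against 4 h, the 1 called gene became 0 with a pseudocount of 1, median centring, the replicate block, the compared groups alone or the mean over probe sets, and 0 to 1 without 1 array; the 0 called probe sets became 2 with a pseudocount of 64 and 1 with the filter. The causes were not tested, except that the filter tests fewer features.

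With the replicate block, EGR1 from 4 h to 24 h had an adjusted p of 0.141 (limma), and the only other member call it changed was the EGR1 probe set at 4 h. The labels do not say whether the replicate numbers pair the arrays. Deviations of same-numbered arrays had correlations of -0.09 to 0.11 (1 of 9 above 0.1), which gives no clear sign of pairing but cannot settle it. Signs turned in values that were not called. EGR3 at 4 h was 0.014 with a pseudocount of 1, and from 4 h to 24 h 0.00061 with median centring. JUN at 4 h was 0.0032 with quantile normalization and 0.072 with the mean over probe sets. FOS at 24 h was -0.012 with a pseudocount of 1, FOSL2 from 4 h to 24 h was -0.050 with the mean over probe sets, and with median centring FOSB 202768_at and FOSL2 228188_at were -0.0089 and -0.0058 at 4 h.

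Without 1 array, values at 4 h ranged from -0.31 to 0.17 for EGR3, -0.020 to 0.14 for FOSB, -0.13 to 0.10 for JUN 201464_x_at, -0.48 to 0.18 for 201465_s_at, -0.13 to 0.40 for 213281_at and -0.013 to 0.17 for FOSL2 228188_at. At 24 h they ranged from -0.35 to 0.14 for EGR3 and -0.21 to 0.29 for FOS. From 4 h to 24 h they ranged from -0.17 to 0.091 for EGR3, -0.17 to 0.042 for FOSL1, -0.079 to 0.13 for FOSL2 225262_at, -0.086 to 0.14 for 205409_at, -0.30 to 0.073 for 218880_at, -0.035 to 0.42 for 218881_s_at and -0.077 to 0.13 for EGR1 201693_s_at. EGR3, FOS and FOSB gave no value with the filter on dim genes. Values near the pseudocount of 16 limit what can be said of these 3 genes.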
